A study of Mus musculus with 11 samples.

Results

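The IFT-B complex is the larger of the protein complexes that form intraflagellar transport trains. These trains carry building material along the axoneme to the growing tip of a cilium or sperm flagellum, moved outward by kinesin-2 motors and returned by dynein-2 with the help of the IFT-A complex. IFT-B has a core, which holds the tubulin binding partners IFT74 and IFT81, and a peripheral part, to which IFT172, IFT80 and IFT57 belong. In the testis the trains are needed when the flagellum of the spermatid is assembled. RFX2 is a winged helix transcription factor of the germ line, and RFX proteins are known in many animals as regulators of genes for cilia and of intraflagellar transport genes.

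The 10 genes described here, Ift74, Ift81, Ift88, Ift52, Ift46, Ift27, Hspb11, Ift172, Ift80 and Ift57, were chosen by name as subunits of IFT-B from a table of 23074 genes. All 10 were found and all 10 passed the filter on low counts, which left 15745 genes. RNA was sequenced from whole decapsulated testis at postnatal day 21 (P21), when the germ cells reach meiosis and the first round spermatids appear, in 5 wild type (WT) and 6 Rfx2-/- mice of a mixed C57BL/6, 129/Sv and FVB/N background. The null allele lacks the exon that encodes most of the DNA binding domain. That exon was removed by a Cre driven from an actin promoter in the whole animal, so every cell of the Rfx2-/- mice carries the deletion, and by the study's methods the mixed background line keeps the neomycin selection cassette. In such tissue, fewer cells of a type and less RNA per cell cannot be told apart.

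Libraries held 22232097 to 29769483 counts per mouse, and levels are given as CPM, the count of a gene relative to the scaled total of its library. Rfx2 itself measured 472, 380, 218, 368 and 191 CPM in WT mice 1 to 5 and 305, 315, 296, 282, 324 and 300 CPM in Rfx2-/- mice 6 to 11. The count covers the whole gene, so it does not check the removal of the exon. Markers of germ cells and of Sertoli, Leydig and other somatic cells of the testis were detected, and none of the 10 lists had scores that separated the genotypes. Single markers did. Of 55 tested markers, 1 was called, the Leydig cell enzyme gene Hsd3b1, with -0.86 on the log2 scale and an adjusted p of 0.00126 in edgeR. It did not overlap between genotypes, nor did 3 other markers that were lower, Lhcgr of Leydig cells, Wt1 of Sertoli cells and Ccno, and 1 that was higher, Ccna1 of pachytene spermatocytes. Over all tested genes, 1.94% were called lower, 5.2% were lower without overlap and 6.5% were higher without overlap. All 7 Sertoli, 6 spermatogonial, 5 macrophage and 4 endothelial markers lay below 0, as did 54.8% of all tested genes. In contrast, 6 of 7 pachytene and 7 of 8 round spermatid markers lay above 0. The round spermatid estimates were uncertain, with SEs from 0.352 for Acr to 1.34 for Tssk2. Only 1 of 6 elongating spermatid, 1 of 6 Leydig and 1 of 3 tested multiciliated epithelium markers lay above 0. All 3 peritubular markers lay below 0. The part of these markers in the changes of the IFT-B genes was not tested. Refits with the pachytene or the round spermatid score as a covariate are given as descriptions, since the scores may themselves depend on genotype. Of 5 markers of multiciliated epithelium, Mcidas and Gmnc did not pass the filter on low counts. WT mice 3 and 5 stood apart from the other mice in their pachytene scores. Their scores for 7 markers of pachytene spermatocytes (mean log2 CPM) were 6.94 and 6.62, against 7.95 to 8.69 in the other WT mice and 8.15 to 9.0 in the Rfx2-/- mice. Their Sertoli cell scores, 7.11 and 7.23, were the highest of the 11 mice. The other mice were not alike in stage markers either. The elongating spermatid score was 5.72 in WT mouse 1, 5.33 in Rfx2-/- mouse 7 and -1.69 to 3.24 in all remaining mice. Results are also given without WT mice 3 and 5, which had the lowest pachytene scores, where that changes them. They were picked after the data were seen, so p-values without them are descriptions.

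RFX proteins bind a motif called the X box, which consists of inverted arms. It was searched as GTTNCC, then 1, 2 or 3 letters, then GGNAAC, on both strands of the 300 bases around the start of each gene in the RefSeq promoter table for GRCm38.p6. Of the 10 genes, 8 had an entry, and those of Ift81 and Ift80 are missing. A perfect X box was found in 0.776% of the 32851 promoters and a box with at most 1 mismatch in 4.83%. Up to 2 mismatches, a setting added after the first search, were reached by 29.7% of the promoters, so such a box is common. Its first arm alone, GTTGCC on either strand, was found in 12.5%. The lines below show the promoter letters with the match in capitals, because they set Ift74, the only called member with an entry, beside members that were not called.
Ift74: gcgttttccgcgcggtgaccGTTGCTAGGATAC
Ift57: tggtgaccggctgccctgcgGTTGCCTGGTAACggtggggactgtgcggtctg
Ift52: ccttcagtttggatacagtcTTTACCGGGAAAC
Ift27: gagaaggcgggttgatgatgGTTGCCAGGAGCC
Ift172: atgacgtatgtcgcactcacGTTGCC

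Positions are counted from the RefSeq start of the promoter table, whereas the gene coordinates given with the levels below are those of GENCODE. The starts are the same for Ift74 and differ by 1 to 99 bases for Ift88, Ift52, Ift27, Hspb11, Ift172 and Ift57. The stretch of Ift74 lies on the plus strand at chr4:94614466-94614498, and its capitals, from 5 bases before the start to 7 bases after it, match the X box with 2 mismatches. That of Ift57 lies on the plus strand at chr16:49699214-49699266 and holds the only perfect X box among the members, 60 to 48 bases before the RefSeq start. The GENCODE gene begins 61 bases before that start, and there the box lies just inside the gene. A second box of Ift57, with 1 mismatch, begins 87 bases before the RefSeq start. The stretch of Ift52, chr2:163017326-163017358 on the plus strand, has 1 mismatch. That of Ift27, chr15:78174078-78174110 on the minus strand, has 2. In Ift172, chr5:31291109-31291134 on the minus strand, only the first arm was found, and it begins at the start base. Ift88 had a box with 2 mismatches after its start, at bases 12 to 26. Neither motif was found in the windows of Ift46 and Hspb11. The window of Ift46 surrounds a RefSeq start that lies 5101 bases inside the gene as GENCODE draws it, so the letters around the outermost start were not searched. These matches describe letters and do not show binding. The member with the perfect box was not among those called below.

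Of the 10 IFT-B genes, Ift74 and Ift81 were higher in Rfx2-/- testis and none was lower. A gene counts as called where the adjusted p of edgeR's quasi-likelihood test (Benjamini-Hochberg, over all 15745 genes) was 0.01 or less. By this rule 0.73% of all tested genes were higher and 1.94% were lower. Both also rose by more than 2-fold, which 0.216% of all tested genes did with the same call. The other 8 members lay between -0.49 and 0.63 on the log2 scale, and none of them was called. The median change over the 10 members was 0.30 and that over all tested genes was -0.05, with 8 members above 0 and 2 below.

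Ift74 encodes a core coiled coil subunit that binds tubulin together with IFT81. The gene lies on the plus strand of chromosome 4, from 94614491 to 94693229 of GRCm38. It measured 208, 199, 130, 217 and 127 CPM in WT mice 1 to 5 and 399, 426, 381, 338, 389 and 330 CPM in Rfx2-/- mice 6 to 11. Every Rfx2-/- mouse was above every WT mouse. The means were 176 ± 44.0 CPM (SD, n = 5) and 377 ± 36.6 CPM (SD, n = 6). The difference was 1.10 on the log2 scale (SE 0.157, 95% interval 0.75 to 1.44), with an adjusted p of 0.00182 in edgeR. Without WT mice 3 and 5 it was 0.87, below 2-fold, with an adjusted p of 0.000182. With the pachytene score as a covariate it was 0.80, also below 2-fold, with an adjusted p of 9.42e-05 in edgeR.

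Ift81 encodes the partner of IFT74 and the subunit whose calponin homology domain contacts tubulin. It lies on the minus strand of chromosome 5, from 122550204 to 122614518. Levels were 113, 96.7, 67.9, 103 and 69.4 CPM in the WT mice and 205, 217, 164, 154, 184 and 164 CPM in the Rfx2-/- mice. Here too the genotypes did not overlap. Means were 90.0 ± 20.3 CPM (SD, n = 5) and 182 ± 25.2 CPM (SD, n = 6). The difference was 1.01 on the log2 scale (SE 0.153, 95% interval 0.68 to 1.35), with an adjusted p of 0.00258 in edgeR. Without WT mice 3 and 5 it was 0.81 and the adjusted p was 0.0022. With the pachytene score as a covariate it was 0.70, with an adjusted p of 3.34e-05 in edgeR. Both values are below 2-fold.

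**Figure D1:**
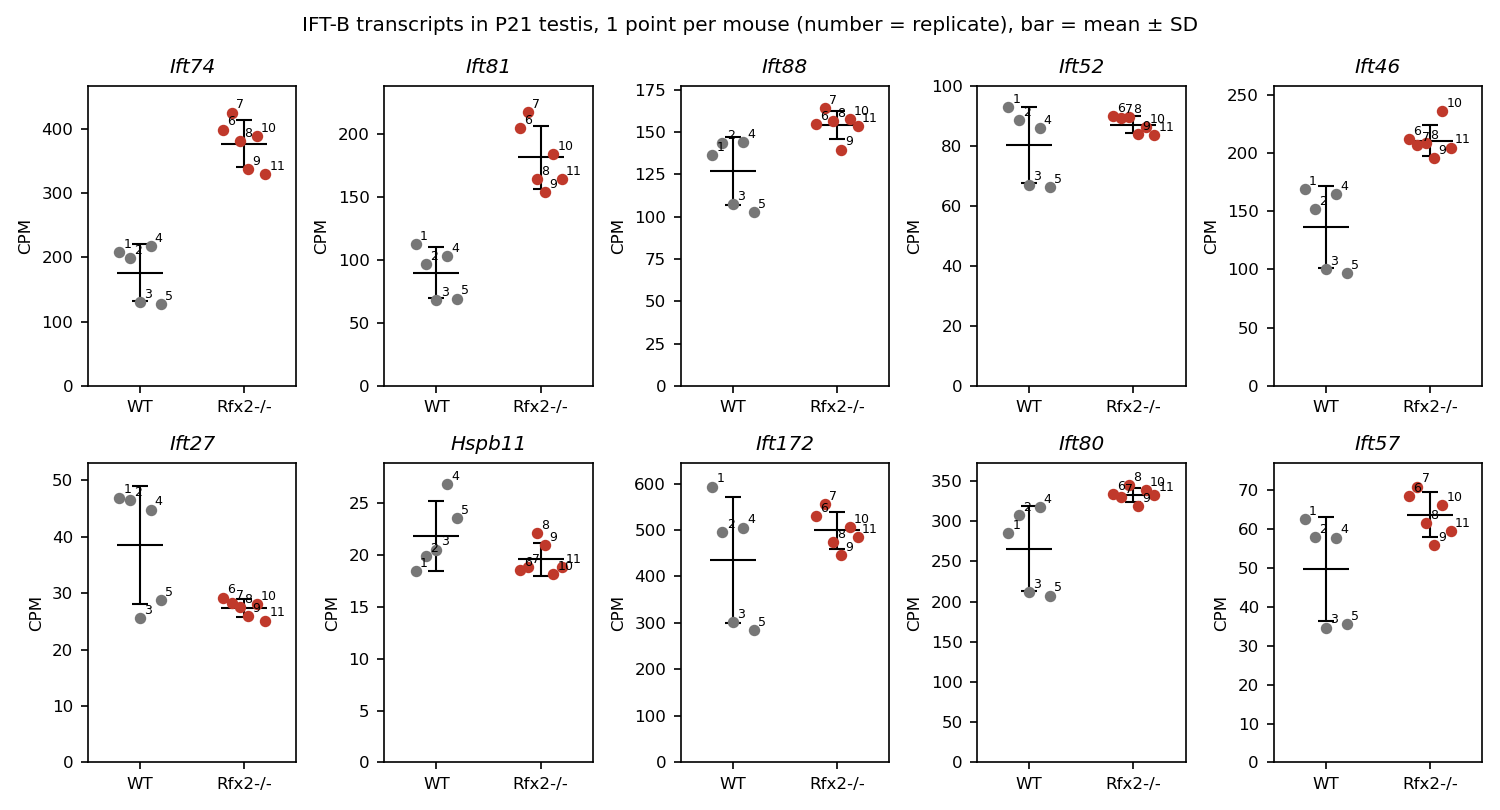
Level in CPM (vertical axes, each from 0) of the 10 IFT-B genes in P21 testis of 5 WT mice and of 6 Rfx2-/- mice; each point is a mouse with its number, and bars give the mean ± SD. All Rfx2-/- points lie above all WT points for Ift74, Ift81, Ift46 and Ift80, and WT mice 3 and 5 are the lowest WT points in 9 panels, Hspb11 being the exception.

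The genotypes also did not overlap for Ift46 and Ift80. In all, 4 of the 10 members were higher in every Rfx2-/- mouse than in every WT mouse and 0 were lower, against 6.5% and 5.2% of all tested genes. Ift46, a core subunit known for the import of outer dynein arms into flagella, lies on the plus strand of chromosome 9, from 44767908 to 44793447. It measured 169, 152, 100, 165 and 96.7 CPM in the WT mice and 212, 207, 209, 195, 236 and 205 CPM in the Rfx2-/- mice. Means were 136 ± 35.3 CPM (SD, n = 5) and 211 ± 13.6 CPM (SD, n = 6). The difference was 0.63 on the log2 scale (SE 0.152) and the adjusted p in edgeR, 0.0269, missed the threshold. Without WT mice 3 and 5 it was 0.39 with an adjusted p of 0.00442, so that Ift46 was then called.

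Ift88 and Ift52 encode core subunits that bind each other, and a defective Ift88 allele is the cause of the polycystic kidneys of a widely used mouse mutant. Ift88, on the plus strand of chromosome 14 from 57424062 to 57517936, measured 136, 144, 108, 144 and 103 CPM in the WT mice and 155, 164, 156, 140, 158 and 153 CPM in the Rfx2-/- mice. Only Rfx2-/- mouse 9 fell into the range of the WT mice. The difference was 0.28 on the log2 scale (SE 0.0978, adjusted p in edgeR 0.0653), and 0.13 without WT mice 3 and 5 (adjusted p 0.112). Ift52, on the plus strand of chromosome 2 from 163017354 to 163046141, measured 66.5 to 93.2 CPM in the WT mice and 83.7 to 90.1 CPM in the Rfx2-/- mice. The Rfx2-/- mice lay within the range of the WT mice. Its difference was 0.12 with a 95% interval of -0.08 to 0.32 (adjusted p in edgeR 0.33), and it was -0.03 without WT mice 3 and 5. Exons of Ift88 overlap those of the antisense gene Ift88os. Since the strand setting of the counting is not given in the sources used here, reads of the 2 genes cannot be told apart.

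Ift27 and Hspb11 encode partners as well. IFT27 is a small GTPase of the Rab type, Hspb11 encodes its binding partner IFT25, and in mice both proteins are known to be dispensable for most cilia but required for the sperm flagellum. Ift27, on the minus strand of chromosome 15 from 78159463 to 78174107, measured 46.9, 46.4, 25.5, 44.8 and 28.7 CPM in the WT mice. In the Rfx2-/- mice it measured 29.2, 28.2, 27.6, 26, 28.0 and 25.1 CPM. WT mice 1, 2 and 4 were above all Rfx2-/- mice, whereas WT mice 3 and 5 lay at their level. With all 11 mice the difference was -0.49 on the log2 scale (SE 0.16) and the adjusted p in edgeR was 0.0573. Without WT mice 3 and 5 it was -0.74 with an adjusted p of 5.24e-05. These mice held the lowest WT levels of Ift27 and were left out after the data were seen, so this p is a description. With the pachytene score as a covariate the difference was -0.79 with an adjusted p of 0.000167. The score itself may depend on genotype, and its part in the result was not tested.

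Hspb11 lies on the plus strand of chromosome 4, from 107253593 to 107279938. It measured 18.5, 19.9, 20.5, 26.8 and 23.6 CPM in the WT mice and 18.6, 18.9, 22.1, 20.9, 18.2 and 18.8 CPM in the Rfx2-/- mice. The genotypes overlapped over most of their range. The difference was -0.16 on the log2 scale with a 95% interval of -0.39 to 0.07 (adjusted p in edgeR 0.253). Hspb11 was the only member whose lowest WT level was in mouse 1, which had the highest pachytene score of the WT mice.

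The peripheral subunits were not called. Ift172, which encodes the largest subunit and acts in the turnaround of the trains at the tip, lies on the minus strand of chromosome 5, from 31253277 to 31291116. It measured 593, 495, 301, 505 and 284 CPM in the WT mice and 530, 556, 473, 445, 506 and 485 CPM in the Rfx2-/- mice. WT mouse 1 was above all Rfx2-/- mice and WT mice 3 and 5 were below them. The difference was 0.20 on the log2 scale (SE 0.184, 95% interval -0.21 to 0.60, adjusted p in edgeR 0.423), and it turned to -0.08 without WT mice 3 and 5.

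Ift80, whose human counterpart is mutated in a form of thoracic dystrophy, lies on the minus strand of chromosome 3, from 68892499 to 69004570. It measured 285, 307, 212, 317 and 208 CPM in the WT mice and 333, 329, 345, 319, 339 and 332 CPM in the Rfx2-/- mice. The genotypes did not overlap, but WT mouse 4 and Rfx2-/- mouse 9 were close. The difference was 0.32 on the log2 scale (SE 0.116, adjusted p in edgeR 0.0706), and 0.14 without WT mice 3 and 5 (adjusted p 0.0769). Ift57, on the plus strand of chromosome 16 from 49699233 to 49765126, measured 34.7 to 62.6 CPM in the WT mice and 55.9 to 71.0 CPM in the Rfx2-/- mice. These ranges overlapped. The difference was 0.36 (SE 0.163, adjusted p in edgeR 0.119) and fell to 0.11 without WT mice 3 and 5. The antisense gene Gm15518 shares exon sequence with Ift57, so its reads too cannot be told apart from those of Ift57.

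Ift74 and Ift81 were next compared, mouse by mouse, with the other 8 members. This comparison was chosen with the rise of the pair known, and it is given as a description. The mean log2 CPM of the pair exceeded the median of the other 8 members by 0.195 to 0.443 in the WT mice and by 1.04 to 1.33 in the Rfx2-/- mice. The means were 0.317 ± 0.112 (SD, n = 5) and 1.16 ± 0.119 (SD, n = 6), a difference of 0.85 on the log2 scale. It was 0.78 without WT mice 3 and 5.

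The share of the pair in the summed CPM of the 10 genes was also computed. It was 18.6%, 18.4%, 18.5%, 19.2% and 18.9% in WT mice 1 to 5 and 29.6%, 30.5%, 28.2%, 27.7%, 28.5% and 26.6% in Rfx2-/- mice 6 to 11. The WT mice lay within 1 percentage point of each other, mice 3 and 5 included, although the sum of the 10 genes was 1067 and 1042 CPM in these mice and 1606 to 1726 CPM in the other WT mice. In the Rfx2-/- mice the sum was 1779 to 2107 CPM. Between the partners themselves the ratio of Ift74 to Ift81, per kb of exon, was 2.42 ± 0.155 in the WT mice (SD, n = 5) and 2.59 ± 0.181 in the Rfx2-/- mice (SD, n = 6), with overlapping ranges.

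**Figure D2:**
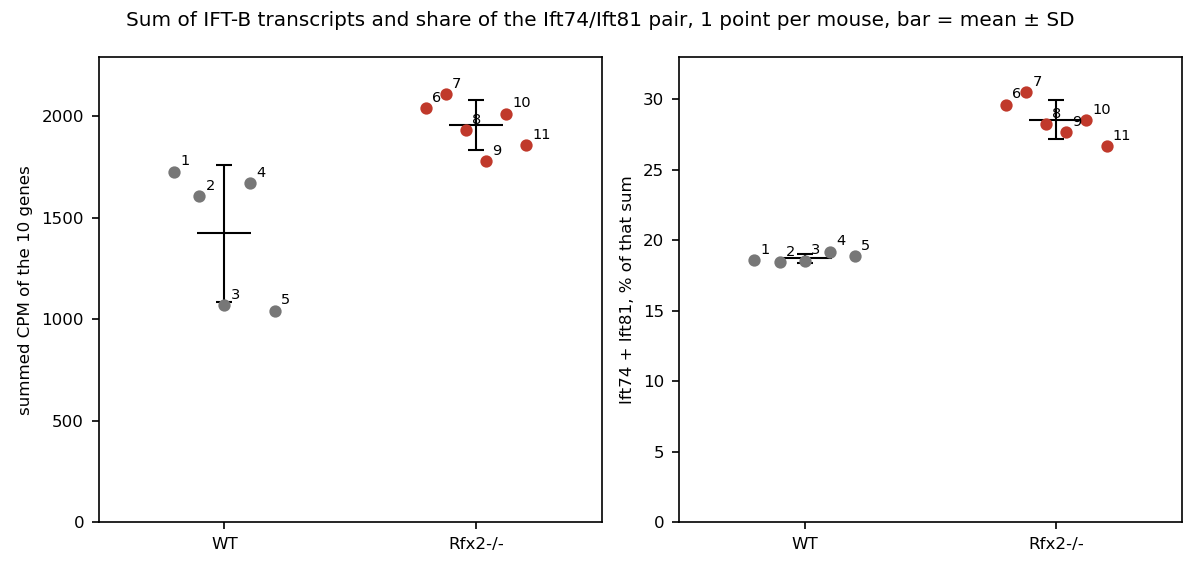
Left, the summed CPM of the 10 IFT-B genes; right, the percentage of that sum from Ift74 and Ift81; each point is a mouse with its number, bars give the mean ± SD, and both vertical axes start at 0. The sum was lowest in WT mice 3 and 5, whereas the share ran from 18.4% to 19.2% over all 5 WT animals and from 26.6% to 30.5% over the 6 Rfx2-/- animals.

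Compared per kb of merged exons, the order of the levels changed, most for Ift81, and also among the members outside the pair. In the WT mice Ift172 came first with 80.5 ± 25.2 CPM per kb (SD, n = 5), followed by Ift74 with 67.3 ± 16.8 and Ift80 with 62.4 ± 12.3, and the ranges of these neighbours overlapped. Ift88 followed with 41.1 ± 6.54 CPM per kb, below the range of Ift80. From Ift88 downward each range overlapped with the next, through Ift52, Ift27, Ift46 and Hspb11 to Ift81, at rank 9, with 27.7 ± 6.26, and Ift57, the last, with 17.4 ± 4.70 CPM per kb. These ranges, and those below, run across mice, whereas all genes were measured in the same mice. An overlap therefore does not show that the order changed within a mouse, and the order within each mouse was not compared.

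In the Rfx2-/- mice Ift74 came first with 144 ± 14.0 CPM per kb (SD, n = 6), above the range of Ift172 with 92.2 ± 7.37. Ift80 followed with 78.2 ± 2.07, and Ift81 took rank 4 with 55.9 ± 7.75 CPM per kb. The range of Ift81 overlapped with that of Ift88, the next, but not with that of Ift80. Ift27 moved from rank 6 to rank 9, with 32.6 ± 8.86 CPM per kb in the WT and 23.2 ± 1.29 CPM per kb in the Rfx2-/- mice. Ift57 stayed last, with a range that overlapped with that of Ift27.

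With all mice included, the members varied more among the WT mice than among the Rfx2-/- mice. The coefficient of variation was 15.3% to 31.3% in the WT and 2.64% to 13.9% in the Rfx2-/- mice, and it was higher in the WT for each of the 10 genes. Ift81 varied most among the Rfx2-/- mice and Ift80 varied least. Low levels of 9 members went with low pachytene scores in WT mice 3 and 5, Hspb11 being the exception. No coefficient of variation was computed without these mice, and their part in the spread was not tested. WT mice 1, 2 and 4 measured 199 to 217 CPM for Ift74 and 96.7 to 113 CPM for Ift81. These ranges were narrower than those of the Rfx2-/- mice, 330 to 426 and 154 to 217 CPM. For Hspb11 the same WT mice ran wider, from 18.5 to 26.8 CPM against 18.2 to 22.1 CPM in the Rfx2-/- mice. Over genes in general, the spread was wide for WT pairs that set mouse 3 or 5 beside mouse 1, 2 or 4. Their chi-square per degree of freedom against sampling noise was 97.7 to 240. It was 16.2 to 67.2 for pairs among WT mice 1, 2 and 4, and 14.3 for WT mice 3 and 5. For pairs of Rfx2-/- mice it was 3.94 to 69.9.

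**Figure D3:**
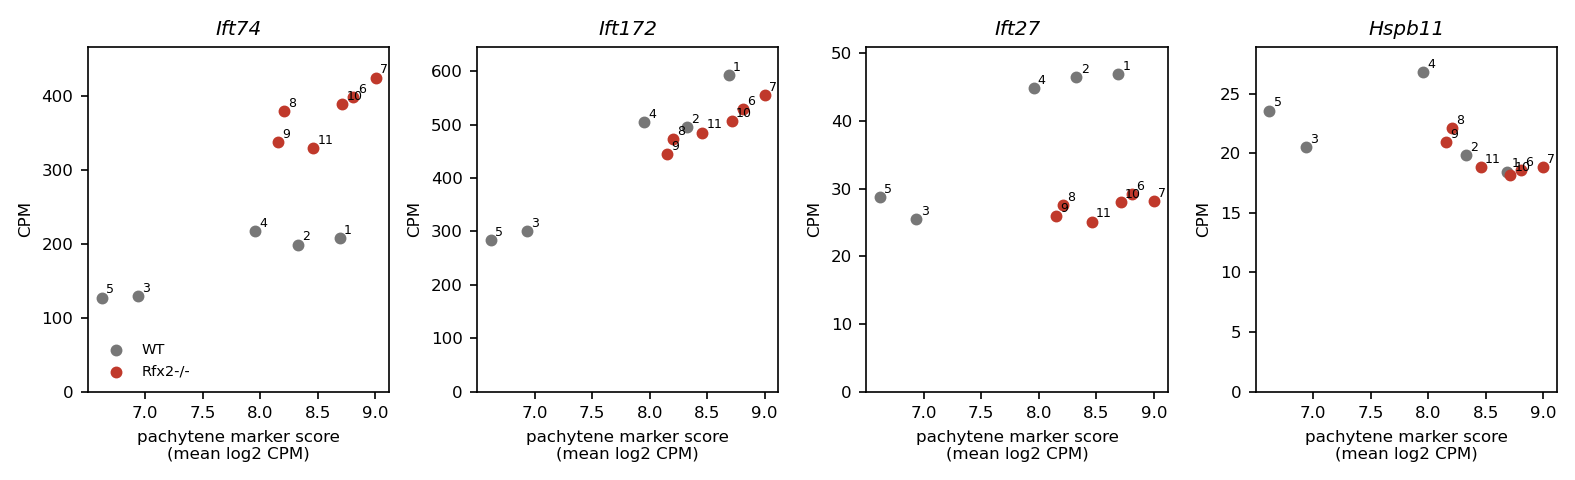
CPM of Ift74, Ift172, Ift27 and Hspb11 (vertical axes, from 0) against the score of 7 pachytene spermatocyte markers (horizontal axis, mean log2 CPM) in 5 WT mice (grey) and 6 Rfx2-/- mice (red), each with its number. At scores above 7.9, Ift74 was 199 to 217 CPM in the WT and 330 to 426 CPM in the Rfx2-/- mice, Ift27 was 44.8 to 46.9 and 25.1 to 29.2 CPM, and the points of Ift172 and Hspb11 overlapped.

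Over the 11 mice, 6 of the other 8 members correlated positively with Ift74 and 2 negatively. The correlation of log2 CPM between Ift74 and Ift81 was 0.989 (Pearson's r, n = 11 mice), which placed Ift81 at rank 3 of 10273 genes with a mean of at least 10 CPM. This value includes the difference between genotypes, and it is a description. Ift46 had r = 0.959 (rank 174), Ift88 0.912 (rank 980), Ift80 0.901 (rank 1176) and Ift57 0.864 (rank 1916). Ift52 with r = 0.731 was at rank 3197 and Ift172 with 0.710 at rank 3301, so such values were common among the 10273 genes. Ift27 had r = -0.298 and Hspb11 r = -0.433. Outside the members the genes most like Ift74 were Cdkl4 (r = 0.991), 2310057M21Rik (r = 0.990) and Dusp18 (r = 0.989). Cdkl4, a kinase gene, measured 62.5 ± 22.5 CPM in the WT mice (SD, n = 5) and 188 ± 12.2 CPM in the Rfx2-/- mice (SD, n = 6). The genes most like Ift81 were ENSMUSG00000043858 (r = 0.993), which has no symbol in the annotation, Rtl6 (r = 0.992) and Penk (r = 0.991). Penk, the gene of the proenkephalin precursor, measured 59.8 ± 23.8 CPM in the WT mice (SD, n = 5) and 215 ± 46.2 CPM in the Rfx2-/- mice (SD, n = 6).

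Genes that begin next to the GENCODE start of a member on the opposite strand were examined as well. Arcn1, a coat protein gene that starts 63 bases from Ift46, differed by 0.07 on the log2 scale (SE 0.0593, adjusted p in edgeR 0.378). Lrrc42, which starts 61 bases from Hspb11, differed by -0.24 (SE 0.124, adjusted p in edgeR 0.165). Smc4, a condensin gene that starts 168 bases from Ift80, differed by 0.49 (SE 0.115, adjusted p in edgeR 0.025). None of the 3 was called, and no protein coding gene starts within 1 kb of Ift74 or Ift81 on the opposite strand. Lrrc19 lies inside Ift74 without sharing exons and measured 0.323 and 0.358 CPM on average in the WT and Rfx2-/- mice.

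The other genes of the transport machinery were not called in either direction. Of the 8 remaining IFT-B subunits, 4 lay above 0 and 4 below, with a median of 0.02 on the log2 scale. They ranged from -0.27 for Ttc30b to 0.42 for Traf3ip1, which encodes a peripheral subunit and had the lowest adjusted p of the 8, 0.0586 in edgeR. Ttc30a1, Ttc30a2 and Ttc30b are near-identical copies, and their counts are uncertain because reads with more than 1 place in the genome were discarded.

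Among 30 genes of IFT-A, kinesin-2, dynein-2, the BBSome and their partners the median was 0.18, with 19 above 0 and 11 below. Of the 6 IFT-A genes 5 lay above 0, with a median of 0.27. Ift140, an IFT-A core subunit, measured 426 to 925 CPM in the WT mice and 911 to 1126 CPM in the Rfx2-/- mice, with an adjusted p of 0.066 in edgeR. Kif3a, a motor subunit of kinesin-2, differed by 0.36 (SE 0.108) with an adjusted p of 0.0492. Ttc8, a subunit of the BBSome cargo adaptor, measured 34.0, 37.7, 26.7, 39.1 and 26.5 CPM in the WT mice and 22.6 to 25.5 CPM in the Rfx2-/- mice. The genotypes did not overlap, and the difference was -0.42 (SE 0.11) with an adjusted p of 0.0333 in edgeR, the lowest of the 30 genes. Ttc21b (IFT-A) and Arl6, which recruits the BBSome to membranes, were higher without overlap, by 0.36 and 0.51 on the log2 scale, with adjusted p-values of 0.0634 and 0.0565 in edgeR. Without overlap, then, 2 of the 30 were higher and 1 was lower, beside 6.5% and 5.2% of all tested genes. Kif17 had the highest estimate, 1.16, but with an SE of 0.911 and an adjusted p of 0.339.

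**Figure D4:**
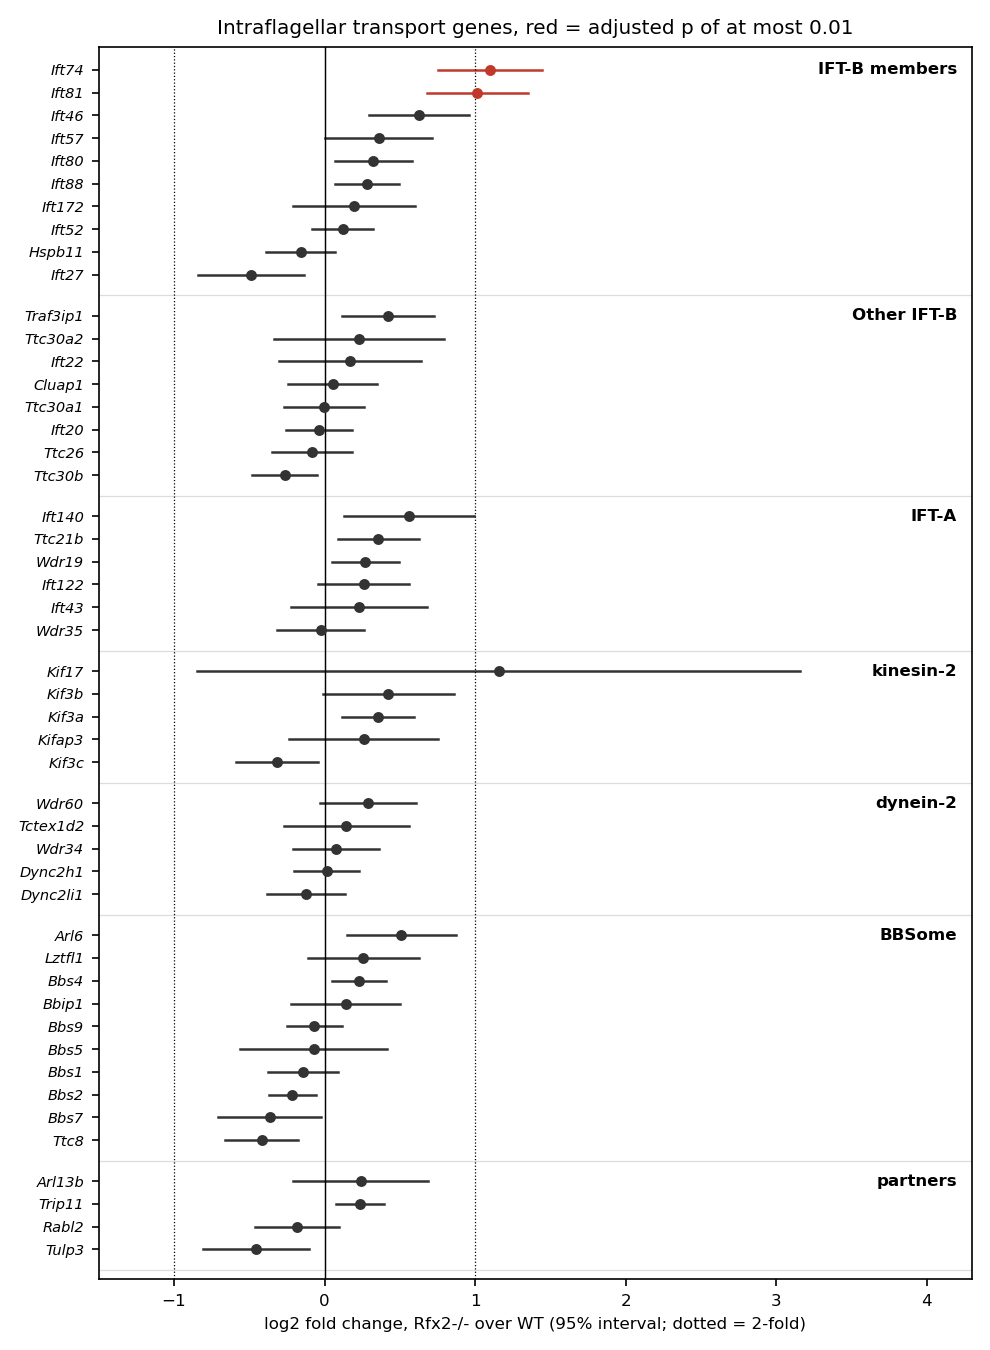
Log2 fold change of Rfx2-/- over WT (horizontal axis, points) with its 95% interval (lines) for the 10 IFT-B members, the 8 other IFT-B genes and 30 further transport genes, grouped by complex; dotted lines mark 2-fold and red marks an adjusted p of at most 0.01. Only Ift74 and Ift81 are red, and the interval of Kif17 is the widest.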

How the data were processed

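Per the labels and the study's methods, TruSeq libraries were sequenced as single reads, processed with CASAVA 1.8.2, STAR 2.4 and featureCounts 1.4.6, and mapped to GRCm38. Reads with more than 1 place in the genome and reads on exons of different genes were left out. The deposited table holds raw counts per gene and mouse, not normalized by the authors. The strand setting is not given in the sources used here.

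The analysis used edgeR 4.0.16 (R 4.3.3). After filterByExpr had removed genes with low counts and TMM had scaled the libraries, 5 WT mice were compared with 6 Rfx2-/- mice by glmQLFTest without covariates. The study used DESeq with a p of at most 0.01. P-values were adjusted by the Benjamini-Hochberg method over all 15745 tested genes and called at 0.01. Log2 CPM used a prior count of 2. A count of 3, taken as the floor, equals 0.0852 to 0.139 CPM, and it covers counting error only. Replicates were separate mice and differed by more than sampling noise.

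Levels per kb used merged exons of protein coding transcripts from GENCODE M21. By the study's methods the counts were made on merged exons of an Ensembl annotation, whose exon lengths may differ. Levels, ranks and ratios per kb are therefore approximate. Named genes were all members, called genes of the other transport lists, Rfx2, the 3 genes most correlated with Ift74 and with Ift81, and neighbours that start within 1 kb on the opposite strand or share exons. Other transport genes and single markers were named after their values were seen. The members and all lists were chosen with earlier results of these data known. Alternatives were DESeq2 1.42.0, limma 3.58.1 voom with quality weights, other scalings, filters and thresholds, marker scores as covariates, and each mouse left out. Leaving out WT mice 3 and 5 together was added after seeing the data.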

Additional observations from a re-analysis of the deposited data

How the results depend on the processing

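Ift74 and Ift81 were called higher in all 21 refits, from 0.80 to 1.18 and from 0.70 to 1.11 on the log2 scale, with highest adjusted p-values of 0.00665 and 0.00861. Their size depended on the setting. The count of members called higher by more than 2-fold was 2, and it was 0 with total counts as library sizes, with voom, with the pachytene or the round spermatid score as a covariate, and without WT mice 3 and 5. Total counts as library sizes moved the median of all genes from -0.05 to -0.22. With 1 mouse left out the count was 1 to 2, and it was 1, Ift74, without WT replicate 3, WT replicate 5, Rfx2-/- replicate 6 or Rfx2-/- replicate 7. In the same 5 settings that gave 0, Ift27 was called, so that 1 member was lower in place of 0. Ift46 was called in 3 refits, those with DESeq2, with voom and without WT mice 3 and 5. Ift52 turned to -0.0307 with total counts, -0.0604 with the pachytene score and -0.0253 without WT mice 3 and 5. Ift172 turned to -0.17 with the pachytene score and -0.0812 without these mice. The excess of the pair over the other members kept its direction under every alternative run, between 0.78 and 0.89.

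Of the 8 other IFT-B genes, 1 (Ttc26) was called lower without WT mice 3 and 5. Of the 30 further transport genes, 2 (Kif3a and Trip11) were higher with DESeq2 or at an unadjusted p of at most 0.01, and 1 (Kif3a) was higher at an adjusted p of at most 0.05. The number called lower was 2 with total counts (Bbs2, Ttc8), 1 with DESeq2, at 0.05 or unadjusted (Ttc8), 3 with voom (Bbs2, Bbs7, Ttc8) and 1 with the round spermatid score (Rabl2). It was 5 with the pachytene score (Bbs1, Bbs2, Bbs7, Ttc8, Rabl2) and 5 without WT mice 3 and 5 (Dync2li1, Bbs1, Bbs2, Bbs7, Ttc8). At an adjusted p of at most 0.05, 968 of all 15745 tested genes were higher and 1382 were lower. The shares of all genes called under the other settings are not given. The counts of members and transport genes under those settings are therefore descriptions only. The cause of the changes in these counts was not tested. No paired analysis was run because the labels give no litters or pairs, although the study used littermates of the same age where it could.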

Other observations

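Kif17, a kinesin-2 motor gene of male germ cells, varied far more between mice than any IFT-B gene. It measured 105, 33.2, 8.15, 7.60 and 5.88 CPM in WT mice 1 to 5 and 109, 188, 13.8, 15.0, 61.5 and 39.7 CPM in Rfx2-/- mice 6 to 11. The scores of 8 round spermatid markers (mean log2 CPM) were 5.78, 4.15, 1.10, 1.77 and -0.418 in the same WT mice and 5.30, 6.30, 2.06, 2.15, 4.62 and 3.70 in the same Rfx2-/- mice. WT mouse 1 and Rfx2-/- mice 6 and 7, with the highest scores, had the highest Kif17 levels, and WT mouse 5 had the lowest of both.

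Ratios within other partner pairs, per kb of exon, also differed between mice. The ratio of Ift27 to Hspb11 was 1.67, 1.53, 0.816, 1.10 and 0.800 in WT mice 1 to 5 and lay between 0.814 and 1.03 in the Rfx2-/- mice, within the range of the WT mice. The ratio of Ift52 to Ift88 was 0.826 ± 0.0424 in the WT mice (SD, n = 5) and 0.738 ± 0.0311 in the Rfx2-/- mice (SD, n = 6), with overlapping ranges. These ratios were not tested.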
